A study of Mus musculus with 6 samples.

Results

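The 31 genes described here carry pyruvate into mitochondria and through the tricarboxylic acid (TCA) cycle. They were picked by symbol from the 24537 genes of the RPKM table (reads scaled for transcript length and for the depth of the library), and all 31 were found and passed the filter on low values, which 12659 genes of the table passed. They comprise the pyruvate carrier (2 genes), the pyruvate dehydrogenase (PDH) complex (5), its kinases (4) and phosphatases (3), pyruvate carboxylase (1), matrix enzymes of the TCA cycle (12) and complex II (4). No measured value was used to choose them, although results of these data were already known when the genes were chosen.

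Both groups were grown from 1 immortalized line of mouse brown preadipocytes, differentiated to adipocytes over 6 days in medium with serum. Both groups had thyroid hormone (T3), rosiglitazone and insulin throughout, and dexamethasone, indomethacin and isobutylmethylxanthine at the start of differentiation. The 3 libraries named 4CBA came from cells given 4 mM 4-chlorobenzoic acid from day 4, an inhibitor of COQ2, the enzyme that joins the ring and the tail of coenzyme Q (CoQ). The 3 libraries named CTL came from cells given vehicle (DMSO and ethanol) at the same time. The labels give a treatment of 48 h with a change of medium on the way, and the study's methods give a shorter time. The methods also say that replicates were pooled to make total RNA, so p-values here reflect how far these libraries differ from each other, a spread that may be technical. Everything comes from 1 line in culture, without the other cells of brown fat.

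In the background biology, pyruvate made by glycolysis crosses the inner mitochondrial membrane through the MPC1 and MPC2 carrier. The PDH complex then turns it into acetyl-CoA, and pyruvate carboxylase turns it into oxaloacetate. The PDH kinases phosphorylate the E1 subunit and switch the complex off, and the PDH phosphatases switch it on again. The cycle oxidizes acetyl-CoA and passes electrons to the respiratory chain as NADH and, at complex II, straight to CoQ. Brown fat is known for its many mitochondria, which burn fatty acids and glucose to make heat.

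Low RPKM values move in steps of single reads, which put the depth at 11500000, 10800000 and 10760000 reads in the 4CBA libraries and 12220000, 11920000 and 9400000 reads in the CTL libraries. A single read in a 2000-base transcript was then worth an RPKM of about 0.0448. Log2 values over all tested genes correlated between libraries with r of 0.992 to 0.993 within groups and 0.911 to 0.917 between groups (across genes, which are not independent of each other). Differences were tested with limma on log2(RPKM + 1), so that changes of genes at low levels come out too small, and a gene was called at an adjusted p under 0.05 (Benjamini-Hochberg over the 12659 genes). Means are of RPKM with the SD over 3 libraries, and folds are ratios of these means.

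Most of the 31 genes were lower in 4CBA. The test called 27 lower and 2 higher (Pdk4 and Pdk3), and did not call 2 (Pdp1 and Pdp2). Over all tested genes the test called 68.4% in either direction, 30.0% lower and 38.4% higher. The 3 libraries of 4CBA did not overlap with those of CTL for 29 of the 31 genes, against 72.7% of all tested genes. A log2 fold change of −1 or lower was found for 21 of the 31 genes and for 6.11% of all tested genes. The median log2 fold change was −1.29 over the 31 genes and 0.06 over all tested genes. When each library was scaled to the same median, that median over all tested genes was −0.04 and the calls over all tested genes were 4693 lower and 3950 higher (54.3% lower), where without scaling 43.9% of calls were lower.

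**Figure D1:**
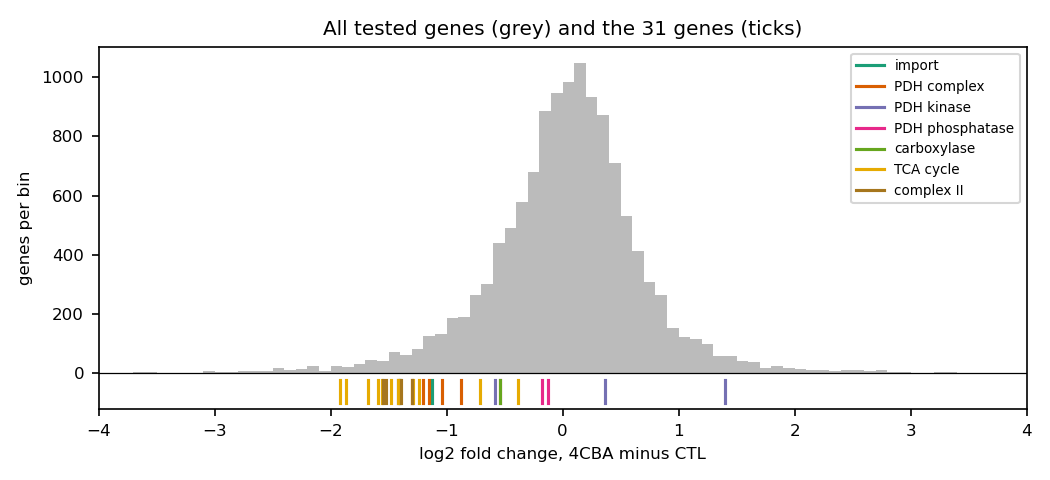
Number of tested genes (vertical axis) by log2 fold change of 4CBA minus CTL (horizontal axis), with a tick under the axis for each of the 31 genes, coloured by role. The ticks of the 27 genes called lower lie between −1.92 (Suclg1) and −0.38 (Suclg2), and the 2 ticks to the right of 0 are Pdk3 (0.37) and Pdk4 (1.40).

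The summed RPKM of the 31 genes was 2295, 2289 and 2266 in 4CBA, against 5711, 5292 and 5226 in CTL. These sums made up 0.690% ± 0.00519 of the RPKM of all genes in 4CBA and 1.53% ± 0.0635 in CTL (SD, n = 3 each). The groups did not overlap, and the exact permutation test gave p = 0.1, the smallest that 3 libraries against 3 allow. Neither RPKM nor its share tells fewer adipocytes from less of these RNAs per cell, since RNA was taken from whole cultures.

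**Figure D2:**
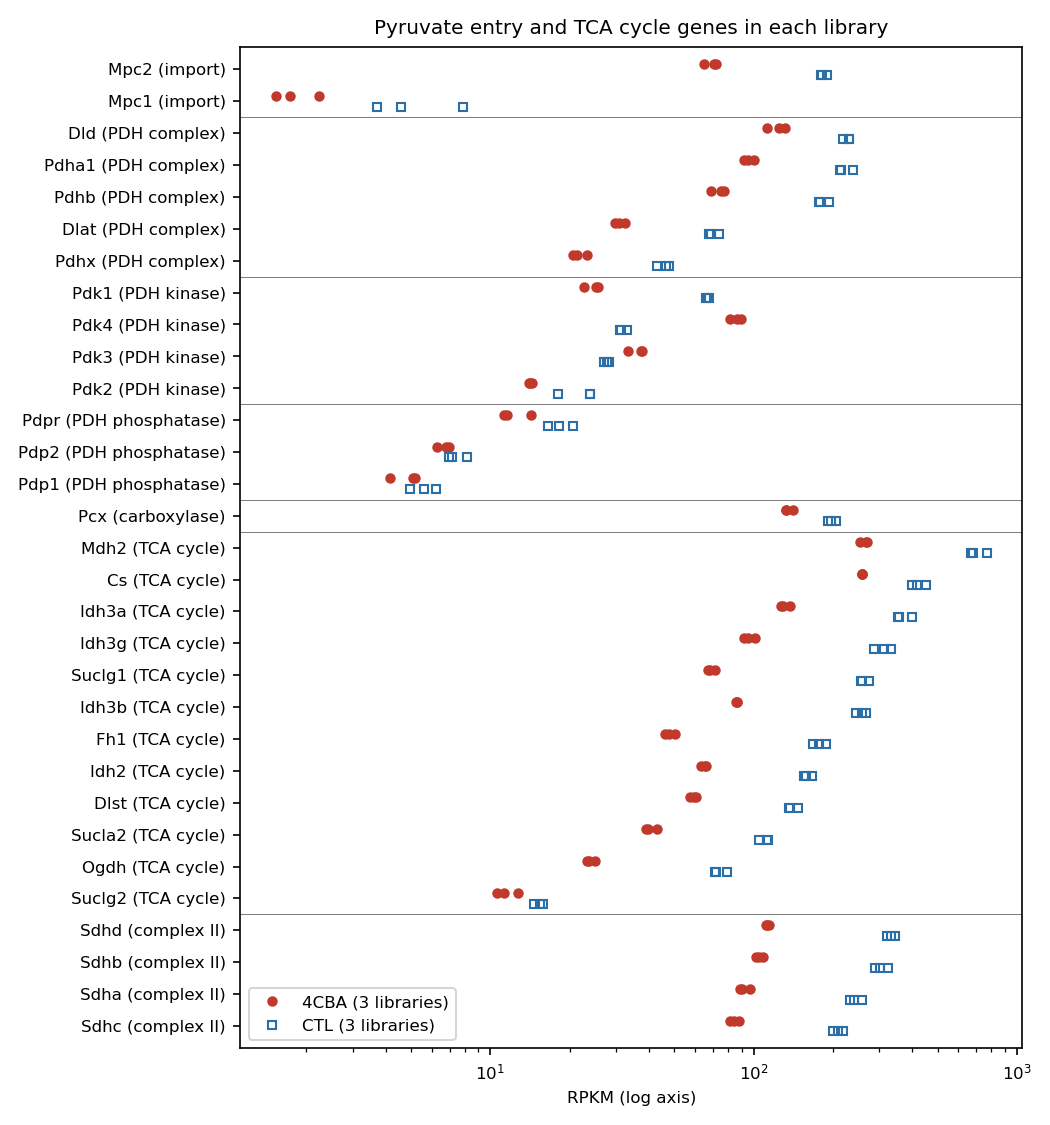
RPKM of each gene (log axis) in the 3 4CBA libraries (filled circles) and the 3 CTL libraries (open squares), with genes ordered by role and by level in CTL within a role. The circles lie left of the squares for most genes, right of them for Pdk4 and Pdk3, and among them for Pdp1 and Pdp2.

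Both subunits of the pyruvate carrier were lower. Mpc2 had 64.8, 70.6 and 72.1 RPKM in 4CBA and 190.5, 181.8 and 181.0 RPKM in CTL. The 4CBA libraries all lay well under the CTL libraries, 2.67-fold lower by the means, with a log2 fold change of −1.40 (standard error 0.0555, limma adjusted p = 9.72e-10). Mpc1, its partner, had 1.73, 2.24 and 1.53 RPKM in 4CBA and 4.59, 3.70 and 7.85 RPKM in CTL, so CTL replicate 3 stood above the other CTL libraries. Its log2 fold change was −1.13 (standard error 0.234, limma adjusted p = 0.00409), and −0.86 without that library (limma adjusted p = 1.70e-04). These values rested on an estimated 16 to 23 reads in 4CBA and 42 to 71 reads in CTL. Over 34.7% of the Mpc1 transcript, a sequence at least 95% identical lies elsewhere in the genome, mostly in the processed pseudogene Mpc1-ps. In addition, 480 exon bases of Mpc1 (23.1%) are shared with 4930506C21Rik on the other strand, whose level was 0.961 RPKM in 4CBA and 1.01 RPKM in CTL. The level of Mpc1 is therefore uncertain. The ratio of Mpc1 to Mpc2 did not separate the groups (0.0262 in 4CBA and 0.0277 in CTL, exact permutation p = 0.9).

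All 5 genes of the PDH complex were lower, with a median log2 fold change of −1.15. Pdha1, the E1 alpha subunit that the kinases phosphorylate, had 100.3, 95.1 and 91.9 RPKM in 4CBA and 238.1, 215.5 and 212.6 RPKM in CTL. Pdhb, the E1 beta subunit, had 75.5, 77.5 and 68.6 RPKM in 4CBA and 192.8, 177.0 and 178.1 RPKM in CTL. Dlat, the acetyl-transferring E2 core, had 30.9, 32.5 and 29.6 RPKM in 4CBA and 74.2, 68.8 and 67.4 RPKM in CTL. For each of these subunits the highest 4CBA library was under the lowest CTL library. Groups did not overlap, in either direction, for 72.7% of all tested genes. The folds of these subunits were close to each other, at 2.32-fold lower for Pdha1, 2.47-fold for Pdhb and 2.26-fold for Dlat. Pdhx, the protein that anchors E3 to the core, was 2.11-fold lower (21.7 ± 1.41 RPKM in 4CBA and 45.8 ± 2.38 RPKM in CTL, SD, n = 3 each). The smallest change in the complex was that of Dld, the E3 subunit, which also serves the 2-oxoglutarate and branched-chain dehydrogenases and the glycine cleavage system. Dld had 131.3, 125.2 and 112.6 RPKM in 4CBA and 229.8, 218.3 and 230.6 RPKM in CTL, a log2 fold change of −0.88 (standard error 0.0618, limma adjusted p = 1.46e-07).

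Ratios within a library, which do not depend on its depth, showed small shifts inside the complex. The ratio of Dld to Dlat was 3.96 in 4CBA and 3.23 in CTL, and the groups did not overlap (exact permutation p = 0.1, adjusted p = 0.129 over the 18 ratios and shares computed). Pdhb to Dlat was 2.38 in 4CBA and 2.60 in CTL, again without overlap (exact permutation p = 0.1). The groups overlapped for Pdha1 to Dlat, at 3.09 in 4CBA and 3.16 in CTL (exact permutation p = 0.6), and for Pdhx to Dlat, at 0.699 in 4CBA and 0.652 in CTL (exact permutation p = 0.2). With 3 libraries a group none of the 18 could pass a threshold of 0.05. Reads of Pdhb may be shared with the pseudogene Gm6123, which resembles 71.2% of its transcript at 97.0% identity. Pdha1 shares 603 exon bases (16.1%) with Map3k15 on the other strand, and Map3k15 had 12.1 RPKM in 4CBA and 27.5 RPKM in CTL.

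The kinases of the complex moved both ways. Pdk1 (chromosome 2, 71873224 to 71903858, GRCm38), which is known as a target of hypoxia-inducible factor, had 25.7, 25.1 and 22.6 RPKM in 4CBA and 66.7, 65.9 and 67.8 RPKM in CTL. It was 2.73-fold lower, with a log2 fold change of −1.42 (standard error 0.0583, limma adjusted p = 1.35e-09). Pdk4 (chromosome 6, 5483351 to 5496309), which is known to rise in fasted tissues, went the other way. It had 81.1, 89.9 and 86.7 RPKM in 4CBA and 33.1, 31.3 and 31.2 RPKM in CTL, every 4CBA library lying above every CTL library. Pdk4 was 2.70-fold higher, with a log2 fold change of 1.40 (standard error 0.0561, limma adjusted p = 1.09e-09), which 97.5% of all tested genes were below.

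Pdk3 (chromosome X, 93764607 to 93832201) had 37.3, 37.6 and 33.3 RPKM in 4CBA and 27.1, 27.9 and 28.2 RPKM in CTL. This was a smaller rise, 1.30-fold, without overlap between the groups (log2 fold change 0.37, limma adjusted p = 1.78e-04). Pdk2 (chromosome 11, 95026258 to 95041354) had 14.2, 14.0 and 14.4 RPKM in 4CBA and 23.9, 24.0 and 18.1 RPKM in CTL, where CTL replicate 3 lay nearer to the 4CBA libraries. Pdk2 was lower by a log2 fold change of −0.59 (limma adjusted p = 2.63e-04), and of −0.72 without that library.

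As the changes of the kinase genes went in opposite directions, their summed RPKM was nearly the same, at 158.2, 166.6 and 157.1 in 4CBA and 150.8, 149.1 and 145.2 in CTL. The sum was 1.08-fold higher without overlap (exact permutation p = 0.1), but with libraries scaled to the same median it was 154.3 ± 5.19 in 4CBA and 154.7 ± 3.47 in CTL (SD, n = 3 each, exact permutation p = 0.9). What differed was the makeup of the sum. Pdk4 made up 53.5% ± 2.02 of the 4 kinase genes in 4CBA and 21.5% ± 0.469 in CTL (SD, n = 3 each). Pdk1 made up 15.2% ± 0.919 in 4CBA and 45.1% ± 1.44 in CTL. Thus the leading kinase gene was Pdk4 in every 4CBA library and Pdk1 in every CTL library. The share of Pdk2 was 8.85% in 4CBA and 14.8% in CTL, and that of Pdk3 was 22.5% in 4CBA and 18.7% in CTL. None of the 4 shares overlapped between the groups (exact permutation p = 0.1 and adjusted p = 0.129 each).

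**Figure D3:**
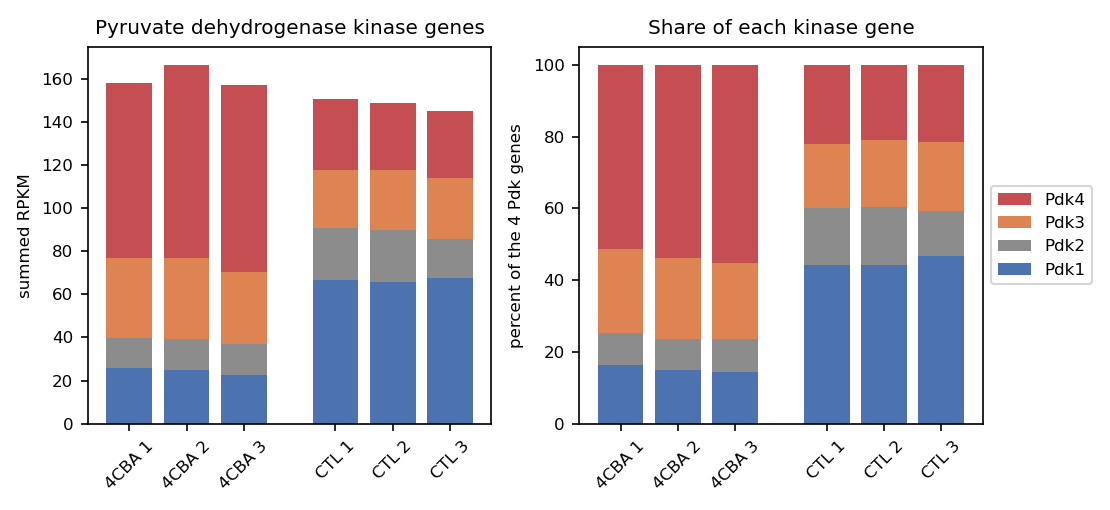
Summed RPKM of the PDH kinase genes in each library (left) and the percent each gene takes of that sum (right), with the 3 4CBA libraries left of the 3 CTL libraries. The bars are of like height, and Pdk4 takes at least 51.2% of them in 4CBA and at most 21.9% in CTL.

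Set against Pdha1, the kinase genes stood higher in 4CBA as a sum, and so did Pdk4, but not every kinase gene did. Pdk1 was lower by more than Pdha1, at 36.6% of its CTL mean against 43.1% for Pdha1. The summed kinase RPKM over that of Pdha1 was 1.68 in 4CBA and 0.669 in CTL, and Pdk4 alone over Pdha1 was 0.897 in 4CBA and 0.144 in CTL. The Pdk4 to Pdk1 ratio was 3.51 in 4CBA and 0.477 in CTL. In all of these ratios the groups did not overlap (exact permutation p = 0.1 and adjusted p = 0.129 each).

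Of the 3 PDH phosphatase genes 1 was lower (Pdpr) and 2 were not called. Pdp1, a catalytic subunit, had 5.19, 5.07 and 4.18 RPKM in 4CBA and 4.97, 5.59 and 6.21 RPKM in CTL. Pdp2, the other catalytic subunit, had 6.98, 6.28 and 6.77 RPKM in 4CBA and 7.15, 6.94 and 8.12 RPKM in CTL. Both genes overlapped between the groups and were not called, with log2 fold changes of −0.18 for Pdp1 (limma adjusted p = 0.123) and −0.13 for Pdp2 (limma adjusted p = 0.165). With libraries scaled to the same median both were called lower, at −0.28 for Pdp1 (limma adjusted p = 0.0273) and −0.23 for Pdp2 (limma adjusted p = 0.0193), and with the authors' log2 values as well. Pdpr, the regulatory subunit, had 11.3, 11.5 and 14.3 RPKM in 4CBA and 20.6, 16.6 and 18.2 RPKM in CTL and was called lower, with a log2 fold change of −0.54 (limma adjusted p = 5.02e-04). The summed RPKM of the 3 genes was 23.9 ± 1.24 in 4CBA and 31.5 ± 2.03 in CTL (SD, n = 3 each), 1.32-fold lower without overlap (exact permutation p = 0.1). The summed kinase RPKM over that of Pdp1 and Pdp2 was 13.99 in 4CBA and 11.4 in CTL, without overlap (exact permutation p = 0.1).

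Pcx, which encodes pyruvate carboxylase, was lower by less than the PDH complex. It had 132.4, 132.9 and 141.1 RPKM in 4CBA and 205.5, 196.0 and 192.5 RPKM in CTL, a log2 fold change of −0.54 (standard error 0.0519, limma adjusted p = 2.07e-06). The ratio of Pcx to Pdha1, the genes at the fork that pyruvate meets in the matrix, was 1.42 in 4CBA and 0.893 in CTL. The groups did not overlap (exact permutation p = 0.1, adjusted p = 0.129). Pcx was 3rd of the 31 genes by level in 4CBA and 13th in CTL.

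All 12 genes for matrix enzymes of the TCA cycle or their subunits were lower, with a median log2 fold change of −1.45. Suclg1, Fh1 and Idh3g had the largest decreases. Suclg1 (chromosome 6, 73248382 to 73276911), the alpha subunit of succinyl-CoA ligase, had 71.4, 68.0 and 66.9 RPKM in 4CBA and 273.2, 258.1 and 255.9 RPKM in CTL. It was 3.82-fold lower, with a log2 fold change of −1.92 (standard error 0.0520, limma adjusted p = 4.96e-11), and 1.28% of all tested genes had a lower one. Fh1 (chromosome 1, 175600374 to 175625635), which encodes fumarase, had 46.2, 50.1 and 47.6 RPKM in 4CBA and 188.7, 177.6 and 168.7 RPKM in CTL. Its decrease was of like size, 3.72-fold, with a log2 fold change of −1.87 (standard error 0.0575, limma adjusted p = 1.34e-10). Idh3g, a regulatory subunit of the NAD-dependent isocitrate dehydrogenase, had 101.5, 95.01 and 91.8 RPKM in 4CBA and 331.3, 312.0 and 287.4 RPKM in CTL. This was the third largest decrease among the 31 genes, 3.23-fold, with a log2 fold change of −1.68 (standard error 0.0629, limma adjusted p = 6.20e-10).

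The other subunits of that dehydrogenase fell with Idh3g. Idh3a, the catalytic alpha subunit, averaged 131.4 ± 5.10 RPKM in 4CBA and 368.9 ± 25.3 RPKM in CTL (SD, n = 3 each), and Idh3b, the beta subunit, averaged 86.3 ± 0.396 RPKM in 4CBA and 256.6 ± 10.8 RPKM in CTL. The log2 fold change was −1.48 for Idh3a (limma adjusted p = 1.14e-09) and −1.56 for Idh3b (limma adjusted p = 2.07e-10). The ratio of Idh3a to Idh3b overlapped between the groups (1.52 in 4CBA and 1.44 in CTL, exact permutation p = 0.2), whereas that of Idh3a to Idh3g did not (1.37 in 4CBA and 1.19 in CTL, exact permutation p = 0.1). Idh2, the NADP-dependent isocitrate dehydrogenase of the matrix, was 2.47-fold lower, at 64.8 ± 1.68 RPKM in 4CBA and 160.0 ± 6.40 RPKM in CTL. Ogdh and Dlst, the E1 and E2 subunits of the 2-oxoglutarate dehydrogenase, were 3.10-fold and 2.38-fold lower. Mdh2, the malate dehydrogenase, had 253.1, 268.0 and 270.1 RPKM in 4CBA and 767.1, 679.5 and 668.7 RPKM in CTL, the highest level of the 31 genes in both groups by the mean.

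Decreases were smaller for Cs and Suclg2. Cs, which encodes the citrate synthase that opens the cycle, had 259.2, 258.3 and 257.4 RPKM in 4CBA and 453.2, 419.1 and 398.3 RPKM in CTL. Its log2 fold change was −0.71 (standard error 0.0556, limma adjusted p = 3.73e-07), or 1.64-fold lower, and in 4CBA its libraries overlapped with those of Mdh2. Suclg2, the GTP-forming beta subunit of succinyl-CoA ligase, had 12.8, 11.2 and 10.6 RPKM in 4CBA and 15.9, 15.5 and 14.6 RPKM in CTL, a log2 fold change of −0.38 (limma adjusted p = 6.66e-04). Sucla2, the ATP-forming beta subunit, had 43.0, 39.2 and 39.6 RPKM in 4CBA and 113.5, 104.6 and 112.6 RPKM in CTL, a log2 fold change of −1.42 (limma adjusted p = 1.15e-09). So the ratio of the ATP-forming to the GTP-forming subunit was lower in 4CBA, at 3.53, than in CTL, at 7.20, without overlap (exact permutation p = 0.1, adjusted p = 0.129). Suclg2 may share reads with the pseudogene Gm15163, which is at least 95% identical over 38.7% of its transcript.

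**Figure D4:**
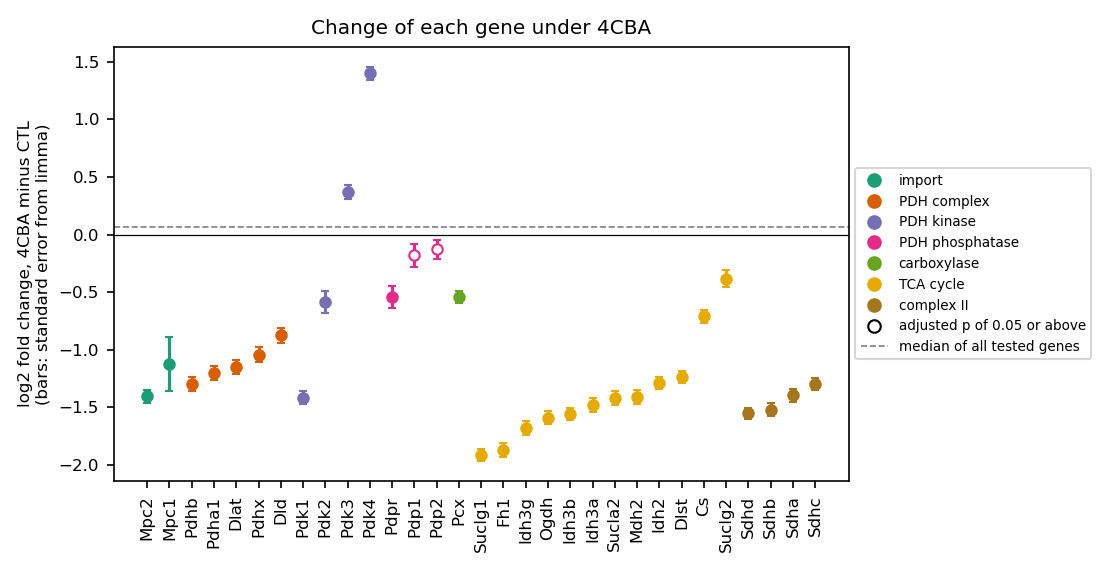
Log2 fold change of each gene (4CBA minus CTL, points) with its standard error from limma (bars), ordered by role and by size within a role. Filled points passed an adjusted p of 0.05, open points (Pdp1 and Pdp2) did not, and the dashed line is the median of all tested genes (0.06).

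The 4 subunits of complex II, the succinate dehydrogenase that hands electrons to CoQ, were lower by like amounts, between 2.48-fold and 2.95-fold. Sdha, the flavoprotein that oxidizes succinate, had 90.2, 88.8 and 97.1 RPKM in 4CBA and 257.0, 232.8 and 241.1 RPKM in CTL. Sdhb, the iron-sulfur subunit, had 108.3, 105.3 and 101.8 RPKM in 4CBA and 322.8, 301.1 and 288.9 RPKM in CTL. The log2 fold change was −1.39 for Sdha (limma adjusted p = 1.31e-09) and −1.52 for Sdhb (limma adjusted p = 4.98e-10). Sdhc and Sdhd anchor the complex in the membrane and help to form the CoQ site. Sdhc had 81.4, 84.1 and 88.0 RPKM in 4CBA and 217.7, 201.1 and 209.0 RPKM in CTL, a log2 fold change of −1.30 (limma adjusted p = 1.40e-09). Sdhd had 114.6, 111.2 and 112.1 RPKM in 4CBA and 345.0, 331.9 and 320.5 RPKM in CTL, a log2 fold change of −1.55 (limma adjusted p = 1.90e-10). For all of the subunits each 4CBA library was under each CTL library. The groups did not overlap, in either direction, for 72.7% of all tested genes.

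The promoters of complex II genes that held a motif match (Sdhd and Sdha) and those of the kinase genes that fell and rose most (Pdk1 and Pdk4) are printed below, 5′ to 3′ on the strand of the gene, as the 250 bases before and the 50 bases from the RefSeq start of GRCm38.p6. Matches to 3 motifs, read on both strands, are in capitals. They are TNAAGGTCA, the site of estrogen-related receptors (ERR), GCGCANGCG, a core of the site of nuclear respiratory factor 1 (NRF1), both known regulators of mitochondrial genes, and TGATGNAA, a C/EBP-ATF site that ATF4 is known to bind.
Sdhd, chr9:50603800-50604099, minus strand: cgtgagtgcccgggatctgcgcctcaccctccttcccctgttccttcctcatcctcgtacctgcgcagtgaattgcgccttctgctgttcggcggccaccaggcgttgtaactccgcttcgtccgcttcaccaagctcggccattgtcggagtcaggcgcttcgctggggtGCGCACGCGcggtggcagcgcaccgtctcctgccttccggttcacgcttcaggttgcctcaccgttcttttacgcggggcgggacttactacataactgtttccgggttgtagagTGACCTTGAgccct
Sdha, chr13:74350191-74350490, minus strand: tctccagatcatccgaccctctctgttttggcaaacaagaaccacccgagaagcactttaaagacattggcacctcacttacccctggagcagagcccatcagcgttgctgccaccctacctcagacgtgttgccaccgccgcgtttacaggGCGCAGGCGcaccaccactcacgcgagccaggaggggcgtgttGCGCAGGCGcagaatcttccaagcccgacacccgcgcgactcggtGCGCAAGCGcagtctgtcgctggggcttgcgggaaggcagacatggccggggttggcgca
Pdk1, chr2:71872974-71873273, plus strand: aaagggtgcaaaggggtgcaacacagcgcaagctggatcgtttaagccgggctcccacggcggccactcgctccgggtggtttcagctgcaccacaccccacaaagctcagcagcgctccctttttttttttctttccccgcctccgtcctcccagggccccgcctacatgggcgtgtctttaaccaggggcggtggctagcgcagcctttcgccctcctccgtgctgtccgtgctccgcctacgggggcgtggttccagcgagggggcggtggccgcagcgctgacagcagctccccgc
Pdk4, chr6:5496229-5496528, minus strand: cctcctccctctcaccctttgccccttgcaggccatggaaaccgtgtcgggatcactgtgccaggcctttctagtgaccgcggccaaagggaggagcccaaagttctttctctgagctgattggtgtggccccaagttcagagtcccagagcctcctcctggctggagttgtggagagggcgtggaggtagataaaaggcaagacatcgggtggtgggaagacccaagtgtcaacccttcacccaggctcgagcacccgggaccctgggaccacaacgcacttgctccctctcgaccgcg

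The Sdhd promoter held an NRF1 match that begins 79 bases before the start and, reading on the other strand, an ERR match that begins 36 bases after it. The Sdha promoter held 3 NRF1 matches, which begin 98, 55 and 10 bases before the start. The Sdhb window, whose gene fell by nearly as much as Sdhd, held 0 matches, and neither printed window of Pdk1 and Pdk4 held one. RefSeq promoters were found for 28 of the 31 genes, in 37 windows. Idh3a, Pdp1 and the complex II gene Sdhc had none and were not searched. An NRF1 match was present in 6 of the 37 windows (16.2%, in Dld, Ogdh, Sdha, Sdhd and Sucla2) and in 6.25% of the 32851 promoters of the table. The Ogdh windows with a match overlap and hold the same site, so the windows are not independent. By gene, 5 of the 28 had an NRF1 match. An ERR match was present in 1 window (2.7%, Sdhd) and in 1.28% of all promoters, and a C/EBP-ATF match in 0 windows and in 3.97% of all promoters. The 2 matches in the Sdhd window did not overlap. These matches are descriptions of the letters, and factor binding was not measured.

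The decreases were uneven enough to change the order of the levels. In 4CBA the order by mean RPKM began with Mdh2, Cs, Pcx, Idh3a and Dld, and in CTL with Mdh2, Cs, Idh3a, Sdhd and Idh3g. Pdk4 was 12th in 4CBA and 24th in CTL, above 94.6% of tested genes in 4CBA and 81.7% in CTL. Dld was 5th in 4CBA and 10th in CTL, and Suclg1 16th in 4CBA and 7th in CTL. In each group 13 of the 30 pairs of neighbours in this order overlapped between libraries, among them Mdh2 and Cs, Pcx and Idh3a, and Pdk4 and Sdhc in 4CBA, and Sdhd and Idh3g in CTL. The lowest levels were those of Mpc1, Pdp1 and Pdp2 in both groups.

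Genes next to the pathway were read from 6 lists of 44 genes, of which 39 were tested. Of these, 21 were lower, 8 were higher and 10 were not called, with a median log2 fold change of −0.39. The test called 30.0% of all tested genes lower and 38.4% higher, 68.4% in either direction. In a list of related enzymes, mostly cytosolic counterparts of those of the cycle, 5 of 6 tested genes were lower and 1 was higher. Idh1, the cytosolic isocitrate dehydrogenase, had a log2 fold change of −2.20, and Me1, the cytosolic malic enzyme, one of 0.67.

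Of 6 tested genes of lactate and pyruvate exchange, 5 were lower and 1 was higher, beside 30.0% lower and 38.4% higher over all tested genes. Ldhb, the lactate dehydrogenase subunit known to favour pyruvate formation, averaged 20.4 ± 1.17 RPKM in 4CBA and 166.7 ± 12.3 RPKM in CTL, a log2 fold change of −2.97. Bsg, which escorts lactate carriers to the cell surface, was lower by a log2 fold change of −0.68. Slc16a3, from the same list, was lower by a log2 fold change of −0.39. Slc16a1, the carrier of lactate and pyruvate across the plasma membrane also called MCT1, averaged 185.5 ± 7.12 RPKM in 4CBA and 66.4 ± 2.44 RPKM in CTL, a log2 fold change of 1.47. Plasma membrane carriage by Slc16a1 and mitochondrial import by Mpc2 thus differed in direction at the RNA level.

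Genes of anaplerosis and glutamate entry moved both ways, with 5 of 9 tested higher, 3 lower and 1 not called, beside 38.4% higher and 30.0% lower over all tested genes. Got1, the cytosolic aspartate aminotransferase, was 3.66-fold higher, and Gpt2, the mitochondrial alanine aminotransferase that exchanges pyruvate for alanine, was 2.96-fold higher (56.0 ± 2.35 RPKM in 4CBA and 18.9 ± 1.38 RPKM in CTL, SD, n = 3 each). Gpt, its cytosolic counterpart, was 3.37-fold lower, and Me2, the mitochondrial malic enzyme, 2.06-fold lower. Of 5 tested dicarboxylate and related carriers, 2 were lower (Slc25a11, the 2-oxoglutarate carrier, and Slc25a10, the dicarboxylate carrier) and 3 were not called.

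Of 9 tested genes for lipoylation and partners of other 2-oxoacid dehydrogenases, 4 were lower, 1 was higher and 4 were not called. Over all tested genes 30.0% were lower and 38.4% higher. Bckdhb, a subunit of the branched-chain dehydrogenase, had a log2 fold change of −0.94, Lipt1, a lipoyltransferase, one of −0.69, and Dbt, the E2 of the branched-chain dehydrogenase, one of 0.28. Of 4 assembly factors of complex II, 2 were lower (Sdhaf4 by a log2 fold change of −1.06 and Sdhaf1 by −0.54) and 2 were not called. These are too few genes to set against the share over all tested genes. All 4 subunits of complex II were lower, but 4 genes beside 4 are also too few to compare.

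Most markers of adipocytes, brown adipocytes, and preadipocytes and fibroblasts were lower, like most of the 31 genes. Over all tested genes 30.0% were called lower and 38.4% higher. All 6 adipocyte markers (among them Adipoq, Fabp4 and Pparg) were lower, with a median log2 fold change of −1.86. Their summed RPKM ran from 4481 to 5690 in 4CBA and from 9575 to 10066 in CTL. Most of that sum was Fabp4 (4846 RPKM in 4CBA and 8620 RPKM in CTL), whose log2 fold change was smaller, at −0.84. Of the 6 brown adipocyte markers 4 were lower, Elovl3 was higher and Dio2 was under an RPKM of 0.5 in both groups, with sums of 49.0 to 52.1 in 4CBA and 243.7 to 270.2 in CTL. Ucp1, the uncoupling protein of brown fat, averaged 2.13 ± 0.231 RPKM in 4CBA and 34.6 ± 3.75 RPKM in CTL (SD, n = 3 each). Of 6 preadipocyte and fibroblast markers 5 were lower and 1 was not called, with sums of 38.4 to 41.5 in 4CBA and 87.8 to 98.7 in CTL. Macrophage markers (5 genes) summed to at most 0.089 in 4CBA and 0.082 in CTL, and endothelial markers (4 genes) to at most 0.418 in 4CBA and 0.128 in CTL. Of the 6 muscle markers Myh1, Myh2 and Myog were listed at 0, Acta1 was higher and the sum ran from 10.2 to 11.5 in 4CBA and from 5.88 to 6.26 in CTL. The part of the adipocyte and brown adipocyte markers' change in that of the 31 genes was not tested.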

How the data were processed

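Values came from 6 libraries, grouped by the titles in the sample labels. The authors mapped reads with STAR to mm10 and counted them over exons with HOMER, keeping 1 transcript per gene. Not given in the sources used here are the tool versions and whether the strand of the stranded kit was used in counting. The authors deposited RPKM values and a second table with log2 values per library, whose transform is not stated. That table also holds the p-values and adjusted p-values that the authors deposited with the log2 fold changes of their DESeq2 comparison, which were not used.

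Genes that reached an RPKM of 0.5 in 3 or more libraries were tested with limma 3.58.1 in R 4.3.3 (intensity trend, robust estimation, two-sided) on log2(RPKM + 1). The procedure was tested on simulated data. Sums, shares and ratios were compared by two-sided exact permutation tests in scipy 1.17.1. Ratios are geometric means over libraries. In the low values 74.1% to 75.2% fell within 0.1 of whole reads at the estimated depths, too few to recover counts, so no count test was run.

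The genes, lists, markers and ratios were chosen with earlier results of these data known. All 31 genes are named, and of each list at most 2 called genes per direction, those that changed most and reached a mean RPKM of 1 in either group. Slc16a3 is named in addition, beside Slc16a1. Every library is given for the genes with the largest changes, those that go against their role or were not called, and both ends of most ratios. Positions come from GENCODE vM21 on GRCm38. Alternatives tried were a pseudocount of 0.1, no filter, a filter at an RPKM of 5, libraries scaled to the same median, no robust estimation, the authors' log2 values, a block for the replicate number, and fits that each lack 1 library. Protein sequences were not used here, and 1 gene picked by the rule for the lists is not reported here.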

Additional observations from a re-analysis of the deposited data

How the results depend on the processing

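Of the 31 genes, 29 kept their call under all of the 13 alternatives that could be fitted to them (Mpc1 drops out at an RPKM of at least 5). Pdp1 and Pdp2 were called lower with libraries scaled to the same median and with the authors' log2 values (Pdp1 −0.25, limma adjusted p = 0.0132, and Pdp2 −0.19, limma adjusted p = 0.0338), which gave 29 genes lower and 2 higher. The median log2 fold change of the 31 genes was −1.41 with that scaling, −1.33 with the authors' log2 values and −1.32 to −1.24 with each library left out. For the genes of the wider lists the median was −0.30 without a filter, −0.49 at an RPKM of at least 5, −0.50 with that scaling, and −0.43 to −0.37 with each library left out. The log2 difference of 4CBA minus CTL in the ratio of Mpc1 to Mpc2 was −0.08, turned to 0.28 with RPKM + 1, and ran from −0.30 to 0.24 with each library left out, being positive without CTL replicate 3 and without 4CBA replicate 3. That of Pdha1 to Dlat was −0.04 and ran from −0.072 to 0.0034 with each library left out, being positive without 4CBA replicate 2. The log2 ratio of the summed kinase genes was 0.11 and turned to −0.0040 with libraries scaled to the same median, an alternative added after the data were seen. The cause of these moves was not tested beyond their construction.

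Libraries with the same replicate number in the labels showed no shared deviation from their group means (r of −0.07, −0.03 and −0.03). Such values cannot show whether these libraries were handled together. With the replicate number as a block 27 of the 31 genes were lower and 2 higher, and over all tested genes 3734 were lower and 4765 higher. Depth limits Mpc1 most, followed by Pdp1 with an estimated 113 to 150 reads in 4CBA and 146 to 167 reads in CTL.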
